A study of Mus musculus with 2 samples.

Results

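The miR-29 family comprises the mature miRNAs of 4 mouse hairpin genes, Mir29a, Mir29b-1, Mir29b-2 and Mir29c. Its members were taken by name from the 1477 miRNA names listed in either of the 2 libraries. The family has 7 names, 3 from the 3p arms and 4 from the 5p arms of the hairpins, and 6 of the 7 were listed. miR-29c-5p was in neither table and is given as 0 counts. Both libraries, replicates 1 and 2 of 1 group, came from cultured mouse skin keratinocytes grown in low-calcium medium. The cells carried an exogenous Dsp-BirA fusion, desmoplakin joined to the biotin ligase BirA, and received biotin, so both libraries share the fusion and the biotin. RNA held by biotin-labelled proteins was recovered on streptavidin beads, in order to ask what Argonaute proteins do at the desmosomal plaque. No library without the fusion or without biotin, and no input, was analysed here. Enrichment over the rest of the cell can thus not be read from the values, and no conditions could be compared.

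A miRNA hairpin is cut into a duplex of a 5p and a 3p strand. An Argonaute protein keeps one strand, the guide, and the other is mostly lost. The guide pairs with target mRNAs mainly through its seed, bases 2 to 8. The miR-29 guides come from the 3p arm, and the family is best known for repressing collagens and other genes of the extracellular matrix. In keratinocytes miR-29 has been reported to repress desmocollin-2, a cadherin of the desmosome.

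The mature sequences are shown because the 3p names differ so little that the assignment of a read can turn on a single base. All 7 matched the RefSeq table of GRCm38.p6. The prefix mmu, for mouse, is left out elsewhere. Capitals mark the seed.
mmu-miR-29a-3p: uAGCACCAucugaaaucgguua
mmu-miR-29b-3p: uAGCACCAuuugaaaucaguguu
mmu-miR-29c-3p: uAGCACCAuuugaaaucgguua
mmu-miR-29a-5p: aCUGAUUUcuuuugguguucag
mmu-miR-29b-1-5p: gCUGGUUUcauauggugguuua
mmu-miR-29b-2-5p: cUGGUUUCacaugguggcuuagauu
mmu-miR-29c-5p: uGACCGAUuucuccugguguuc

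The 3p names share 1 seed, AGCACCA. Counting positions from 1 at the 5′ end, miR-29a-3p and miR-29c-3p are identical at 21 of 22 bases and differ by C10U. miR-29b-3p is 1 base longer. It differs from miR-29c-3p by G18A, U21G and A22U, and from miR-29a-3p by these and C10U. No other mature name in the table has this seed. miR-3102-3p shares bases 2 to 7 and had 3044 and 3281 counts in replicates 1 and 2. The 4 5p names, in contrast, have 4 different seeds. miR-29b-1-5p and miR-29b-2-5p match at 19 of 21 bases when set off by 1 base, so that their seeds are shifted copies of each other. The seed of miR-29b-2-5p is also that of miR-6338, which had 61 and 36 counts.

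The hairpins are shown because the 3p sequence of miR-29b occurs in 2 of them, so that its counts have no single locus. Capitals mark the named 5p and 3p arms, in this order.
Mir29a: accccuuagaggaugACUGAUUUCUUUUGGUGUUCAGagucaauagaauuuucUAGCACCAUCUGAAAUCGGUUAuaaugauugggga
Mir29b-1: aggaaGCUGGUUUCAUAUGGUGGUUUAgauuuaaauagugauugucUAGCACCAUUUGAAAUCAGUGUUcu
Mir29b-2: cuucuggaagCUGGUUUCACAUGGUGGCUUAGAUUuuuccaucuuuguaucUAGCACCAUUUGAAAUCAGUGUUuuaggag
Mir29c: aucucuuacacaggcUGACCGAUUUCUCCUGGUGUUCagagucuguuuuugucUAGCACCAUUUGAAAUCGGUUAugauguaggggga

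In GRCm38.p6, Mir29a lies at chr6:31062660-31062747 and Mir29b-1 at chr6:31063023-31063093, both on the minus strand and 275 bases apart. Mir29b-2 lies at chr1:195037040-195037120 and Mir29c at chr1:195037547-195037634, both on the plus strand and 426 bases apart. The chromosome 1 pair lies within the span of the lncRNA gene A330023F24Rik. No annotated gene of the table spans the chromosome 6 pair, and none lies between the hairpins of either pair. The 5p names separate the loci of miR-29b. The 3p name does not.

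Replicate 1 held 3776893 miRNA counts and replicate 2 held 4122955. Levels are given as CPM, counts per 1000000 miRNA counts of the library. 1 count was worth 0.265 CPM in replicate 1 and 0.243 CPM in replicate 2, and the limit for a name at 0, set at 3 counts, was 0.794 and 0.728 CPM. All 7 miRNAs of an epithelial list (the miR-200 family, miR-141-3p, miR-203-3p and miR-205-5p) were found in both libraries and took 10.6% of the counts in each. A mesenchymal list of 5 names took 0.00249% and 0.0101%, with miR-214-3p first by mean CPM. This name had 26 and 364 counts and led in replicate 2 only, since miR-199a-3p had 35 and 31. In the same list miR-199a-5p was at 0 in replicate 1, and miR-143-3p was at 0 in replicate 2. A blood list of 5 took 0.000609% and 0.00119%. There miR-150-5p (6 and 22 counts) was first by mean CPM but led in replicate 2 only, since miR-142-3p had 15 counts in replicate 1. A neural list of 2, led by miR-9-5p, took 0.0114% and 0.0102%, and a muscle list of 3, led by miR-206-3p, 0.00347% and 0.00204%. A liver list, miR-122-5p alone, took 0.000450% and 0.000849%. Only 2 of the 5 blood names, 1 of the 2 neural and 1 of the 3 muscle names were found in both libraries. Most neural and muscle counts were thus from miR-9-5p (418 and 419) and miR-206-3p (122 and 78). Fibroblasts also express miR-29, so the mesenchymal names are the closest background for this family, and their part in its counts was not tested.

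The family took 2.05% ± 0.0385 of all miRNA counts (SD, n = 2). Its 78417 counts in replicate 1 made up 2.08% (Wilson 95% interval 2.06% to 2.09%). Its 83358 counts in replicate 2 made up 2.02% (2.01% to 2.04%). Nearly all of these were guide strands: the 3p names held 99.3% of the family's counts in each library. The 5p names together had 513 counts in replicate 1 and 546 in replicate 2. The replicates thus held close to the same share of miR-29, with replicate 2 lower by a log2 ratio of -0.04 (exact 95% interval -0.05 to -0.02).

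miR-29a-3p, the guide of Mir29a, was the most abundant member. It had 49589 counts in replicate 1 and 52414 in replicate 2, or 13130 and 12713 CPM, and ranked 17 and 16 among all names. miR-29b-3p, the guide of both miR-29b loci, had 26654 and 28687 counts, or 7057 and 6958 CPM, and ranked 29 and 30. miR-29c-3p had 1661 and 1711 counts, or 440 and 415 CPM, and ranked 133 and 132. The 3 guides therefore stood far apart, and none of their values overlapped. The means were 12921 ± 295, 7007 ± 70.2 and 427 ± 17.5 CPM (SD, n = 2).

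Among the 5p names, miR-29a-5p had 367 and 467 counts, or 97.2 and 113 CPM. miR-29b-1-5p had 130 and 78 counts, or 34.4 and 18.9 CPM. miR-29b-2-5p had 16 counts in replicate 1 and 1 in replicate 2, or 4.24 and 0.243 CPM. miR-29c-5p had 0 in both. In order of level the members ran miR-29a-3p, miR-29b-3p, miR-29c-3p, miR-29a-5p, miR-29b-1-5p and miR-29b-2-5p. Each of these lay below the one before it in both libraries with no overlap of values. miR-29b-2-5p in replicate 2 was under the limit that a count of 0 allows, so its place above miR-29c-5p rests on replicate 1. An exact sign-flip test on 2 libraries cannot give a two-sided p below 0.5, so these differences are set against the spread only. The names are 22 to 25 bases long, and counts were not scaled by length. Ligation and PCR can shift the reads of each name by its sequence.

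**Figure D1:**
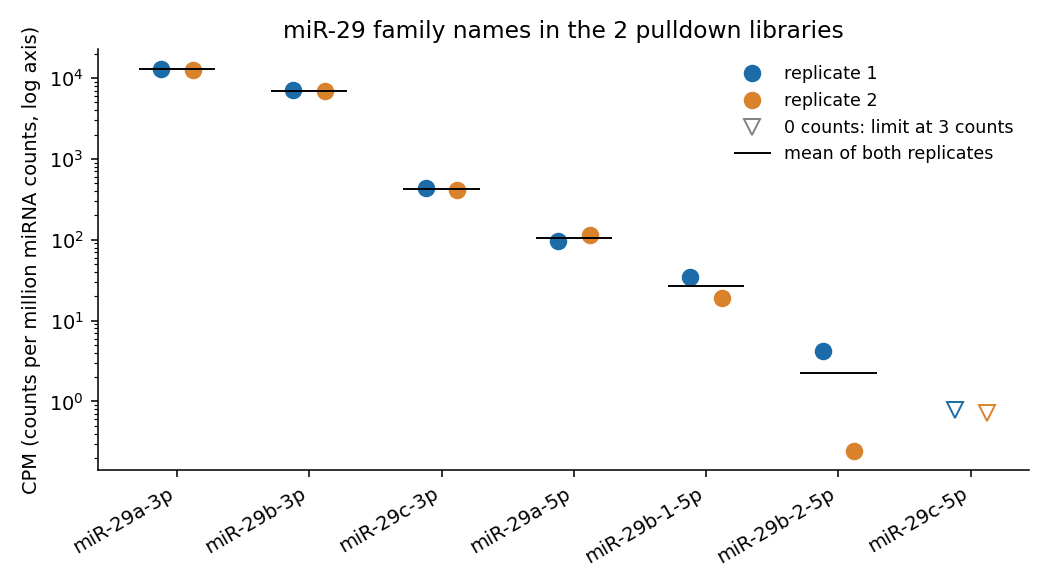
CPM of the 7 miR-29 names (log axis) in replicates 1 and 2, with a line at their mean. Open triangles for miR-29c-5p stand at the limit of 3 counts that a count of 0 allows. The 3p names lie above all 5p names, from 12921 CPM for miR-29a-3p to 427 CPM for miR-29c-3p, and the replicates part most for miR-29b-1-5p and miR-29b-2-5p.

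The guides divided the 3p counts in nearly the same proportions in both libraries. miR-29a-3p took 63.7% (Wilson 95% interval 63.3% to 64.0%) in replicate 1 and 63.3% (63.0% to 63.6%) in replicate 2. miR-29b-3p took 34.2% (33.9% to 34.5%) and 34.6% (34.3% to 34.97%). miR-29c-3p took 2.13% (2.03% to 2.24%) and 2.07% (1.97% to 2.17%). For each guide the intervals of the libraries overlapped. miR-29a-3p had 1.84 ± 0.0236 times the counts of miR-29b-3p and 30.2 ± 0.551 times those of miR-29c-3p (SD, n = 2). The latter pair differs by C10U alone. How the authors' counting treated a read with an error at that base, or one that ended before the bases that set miR-29b-3p apart, is not given in the sources used here. Against a ratio of 30.2, a small share of misassigned miR-29a-3p reads would weigh on miR-29c-3p, and this was not tested.

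miR-29b-3p ends in AGUGUU, from base 18 on. This 6-base element has been described as a nuclear import signal of miR-29b. It was present, read on the given strand, in 12 (0.715%) of 1679 mature mouse names in the table and at the 3′ end of 2, the other being miR-92b-5p. The 2 other miR-29 guides lack it. The labels give the RNA as cytoplasmic. In these streptavidin pulldowns miR-29b-3p had 7007 ± 70.2 CPM, and its place in the cell was not tested. No nuclear library was analysed here.

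The division of the 5p counts moved more between the libraries. In replicate 1 miR-29a-5p took 71.5% of the 5p counts (Wilson 95% interval 67.5% to 75.3%), and in replicate 2 it took 85.5% (82.3% to 88.2%). miR-29b-1-5p took 25.3% (21.8% to 29.3%) and 14.3% (11.6% to 17.5%). These intervals cover counting error only and did not overlap between the libraries. The log2 ratios between the libraries were 0.22 for miR-29a-5p and -0.86 for miR-29b-1-5p, each smaller than the SD over names of like abundance (0.48 and 1.04). The 5p names summed to 0.654% and 0.655% of the family. miR-29a-5p had 2.82 times the counts of miR-29b-1-5p in replicate 1 (exact 95% interval 2.31 to 3.48) and 5.99 times in replicate 2 (4.70 to 7.71). The 5p strands of the chromosome 6 pair, miR-29a-5p and miR-29b-1-5p, together made up 96.9% and 99.8% of the 5p counts.

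Of the miR-29b 5p counts, which alone separate its loci, miR-29b-1-5p took 89.0% in replicate 1 (130 of 146, Wilson 95% interval 82.9% to 93.1%) and 98.7% in replicate 2 (78 of 79, 93.2% to 99.8%). The Mir29b-2 strand was thus the minor one in both libraries. Its 16 counts against 1 gave a log2 ratio of -4.13 with an exact 95% interval of -9.52 to -1.44. A 5p strand is mostly lost after the guide is loaded, so these counts do not measure how much of miR-29b-3p came from either locus.

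The 3p arm held 99.2% ± 0.105 of the counts of miR-29a (SD, n = 2). For miR-29b, with the 5p names of both loci summed, it held 99.6% ± 0.191. The share of the miR-29a 5p arm was 0.735% (Wilson 95% interval 0.663% to 0.813%) in replicate 1 and 0.883% (0.807% to 0.967%) in replicate 2. That of miR-29b held 0.545% (0.463% to 0.640%) and 0.275% (0.220% to 0.342%), so it was below miR-29a in both. miR-29c-5p had 0 counts beside 1661 and 1711 of miR-29c-3p, which allows up to 0.181% and 0.175% of the 3p count. At the 5p to 3p ratio of miR-29a (0.740% and 0.891%), 12.3 and 15.2 counts would have been found. The ratio of miR-29b was lower in both libraries (0.548% and 0.275%) and would give fewer. These limits cover counting error only. No molecular identifiers are mentioned in the sources used here, and the variance of counts between the libraries averaged 20.7 times the mean over the 746 names with a mean of 10 to 300 counts. A shortfall of this number of reads is therefore not shown to be a lower share of strands.

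This strand bias was set beside that of 164 hairpins whose arms were both listed under names alike but for the arm. Each of these had 100 counts or more in each library. Hairpins whose arm names differed in a locus number, such as those of miR-29b, were left out. The 3p arm was the major one in 59 of the 164, with a median 3p share of 95.6% among those 59. miR-29a stood at place 19 of the 59 by that share. A major arm above 99% was found in 42 of the 164 hairpins. With a minimum of 20 counts the 3p arm was the major one in 136 of 309 hairpins, with a median 3p share of 83.7%. miR-29a then stood at place 20 of the 136, and 46 of the 309 had a major arm above 99%. The bias of miR-29a was thus shared with other hairpins, and how far it stood out depended on the minimum.

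**Figure D2:**
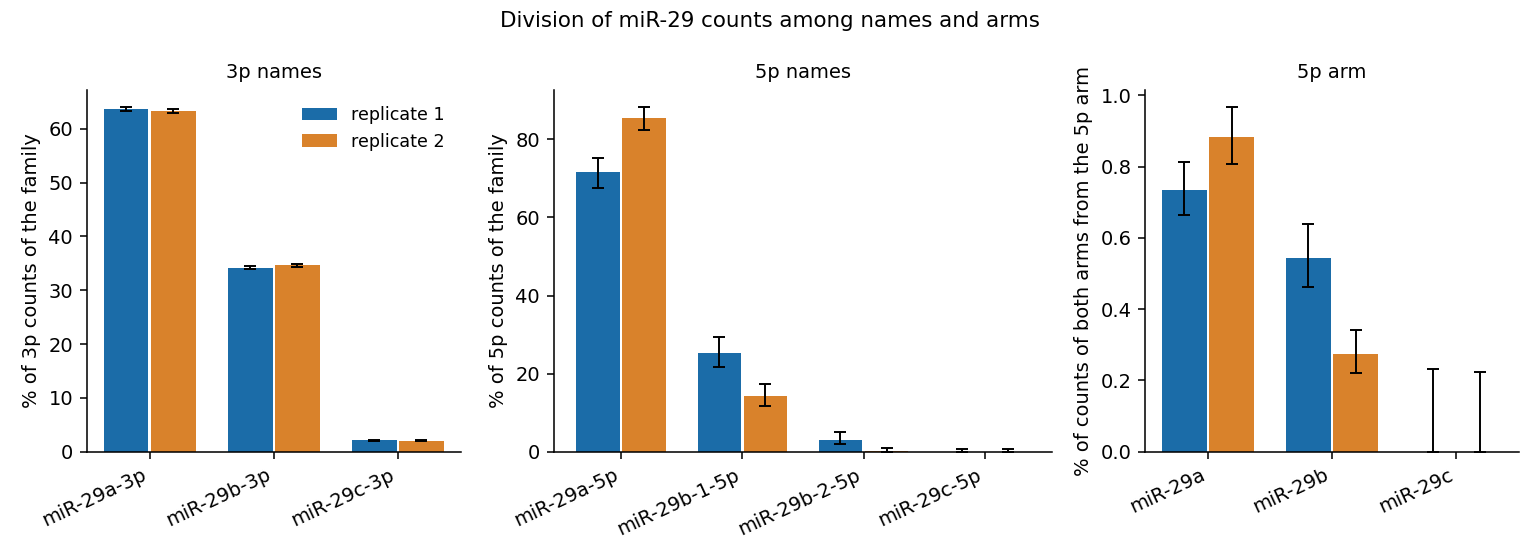
Percent of the family's 3p counts by name (left), of its 5p counts by name (middle), and of each hairpin pair's counts that came from the 5p arm (right), in replicates 1 and 2. Bars start at 0 and error bars are Wilson 95% intervals. The 3p bars match closely, miR-29a-5p stands at 71.5% in replicate 1 and 85.5% in replicate 2, and the miR-29c 5p arm is at 0.

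The libraries were compared name by name with an exact two-sided binomial test of counts against the library totals, adjusted by Benjamini-Hochberg over the 1002 names whose mean count was 10 or more. It compares these 2 libraries, not conditions. Of these names, 70.6% passed an adjusted p of 0.05, so passing was the rule. 5 miR-29 names were deep enough to be tested and 3 of these passed, a share near that background. miR-29b-2-5p, with a mean of 8.5 counts, and miR-29c-5p were not tested.

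miR-29a-3p was lower in replicate 2 by a log2 ratio of -0.05 (exact 95% interval -0.06 to -0.03, exact binomial adjusted p = 7.42e-07). The ratio of miR-29b-3p was -0.02 (-0.04 to 0.004, adjusted p = 0.125), and that of miR-29c-3p was -0.08 (-0.18 to 0.01, adjusted p = 0.123). miR-29b-1-5p was lower in replicate 2 by a log2 ratio of -0.86 (-1.29 to -0.45, exact binomial adjusted p = 5.79e-05). miR-29a-5p was higher by 0.22 (0.02 to 0.42, adjusted p = 0.0415). All 5 ratios were smaller than the SD of the log2 ratio over names of like abundance. This SD was 0.22 above a mean of 10000 counts, the class of miR-29a-3p and miR-29b-3p, 0.33 from 1000 to 10000 (miR-29c-3p), 0.48 from 300 to 1000 (miR-29a-5p) and 1.04 from 100 to 300 (miR-29b-1-5p). When a ratio of at least 2-fold was a further condition, 44.0% of the names tested and 0 of the 5 passed in the exact binomial test. With every count divided by 20.7, the average ratio of variance to mean given above, 1.6% of the names tested and 0 of the 5 passed (0 of the 5 also at an unadjusted exact binomial p of 0.05), a drop built into that setting because the divisor came from the same libraries.

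**Figure D3:**
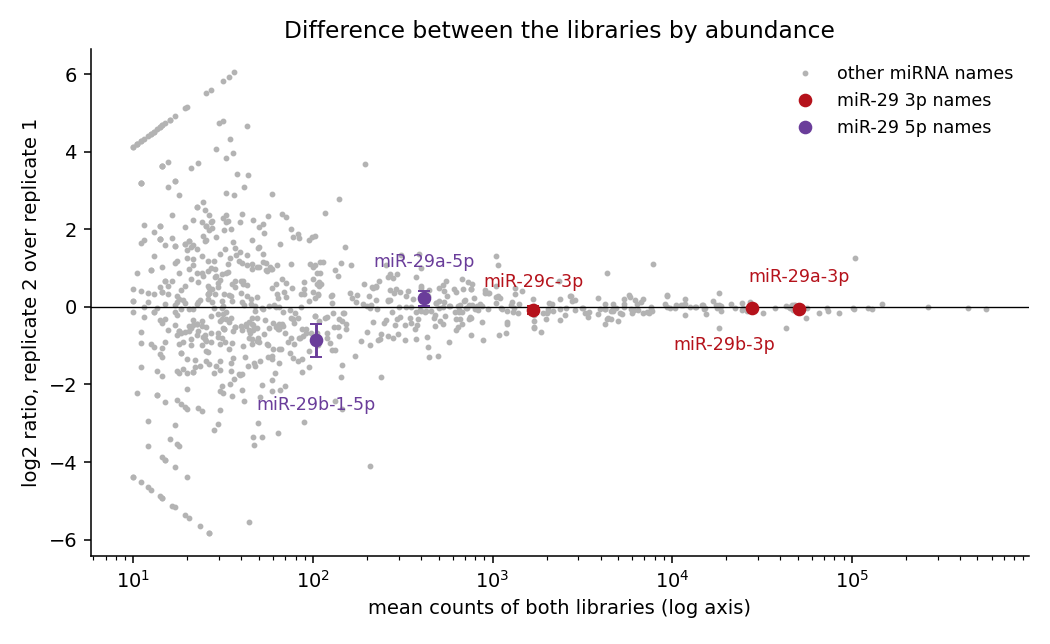
Log2 ratio of replicate 2 over replicate 1 after scaling by library totals, against mean counts (log axis), for tested names with counts in both libraries. The coloured points are the 5 tested miR-29 names with exact 95% intervals. The 3p names lie between -0.08 and -0.02 and miR-29b-1-5p at -0.86, inside the cloud of names of like abundance.

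Names at the level of each guide were taken from the 2 places above and below it by mean CPM, with the absolute difference in log2 mean CPM as the measure of likeness over 2 libraries. Around miR-29a-3p stood miR-2137 (14065 ± 2000 CPM), miR-484 (13401 ± 729), miR-24-3p (12207 ± 348) and miR-183-5p (12051 ± 240), the closest being miR-484 with a difference of 0.053. miR-484 lay above it and miR-24-3p and miR-183-5p below it in both libraries, while miR-2137 changed sides. Around miR-29b-3p stood let-7b-5p (8095 ± 580 CPM), miR-30b-5p (7346 ± 23.8), miR-467a-5p (6877 ± 394) and miR-200c-3p (6608 ± 363), the closest being miR-467a-5p with a difference of 0.027. Only miR-467a-5p of these 4 changed sides between the libraries. Around miR-29c-3p stood miR-669b-5p (432 ± 41.6 CPM), miR-503-5p (428 ± 6.94), miR-297c-5p (425 ± 4.66) and miR-191-5p (425 ± 40.6), the closest being miR-503-5p with a difference of 0.0030. All 4 changed sides, so the order at the level of miR-29c-3p is within the spread.

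Other miRNAs known in skin were set beside the guides through a list of 11 names, all found in both libraries. All 7 names of the epithelial list above are among the 11. The list took 29.3% ± 0.347 of the counts and was led by miR-31-5p with 142121 ± 3663 CPM (SD, n = 2). Of the 11, 4 had a higher mean CPM than miR-29a-3p, 7 a higher one than miR-29b-3p, and all 11 a higher one than miR-29c-3p. In the library comparison 10 of the 11 passed an adjusted p of 0.05 in the exact binomial test. Beside this stood 70.6% of the 1002 names tested. Among tested names with a mean of 10000 counts or more, the class of most of the 11, it was 81.4%.

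Summed by seed, the 3p names took 2.04% ± 0.0382 of the counts (SD, n = 2). This placed them at 12 of 1051 seed families in both libraries, with only names of known sequence summed. The family directly above was led by miR-6240, with 2.15% ± 0.167. It lay above in both libraries, with 2.26% against 2.06% in replicate 1 and 2.03% against 2.01% in replicate 2, although its SD exceeds the difference in means. The family directly below was miR-182-5p, with 1.84% ± 0.0176, which lay below in both libraries. Seeds were known for 1231 of the 1477 names. Names without a sequence in the table held 9.79% of the counts in replicate 1 and 12.03% in replicate 2. They entered no seed family, so some families were undercounted. With names grouped by family number and arm over all 1477, a grouping chosen after seeing the data, miR-29-3p stood at place 13. There miR-30-5p stood above it with 5 names and 2.92%. By seed, the family led by miR-30c-5p stood below it with 3 names and 1.81%. miR-23-3p took 5.18% with 2 names, against 2.62% with 1 name by seed. miR-5099, with 2.60%, entered no seed family. The grouping also split families that share a seed. By seed the family led by miR-429-3p stood above miR-29 with 3 names and 2.75%. By name miR-200-3p, without miR-429-3p, stood below it with 1.97%. The place of 12 thus depends on which names had a sequence, and the place of 13 also on how names were grouped.

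**Figure D4:**
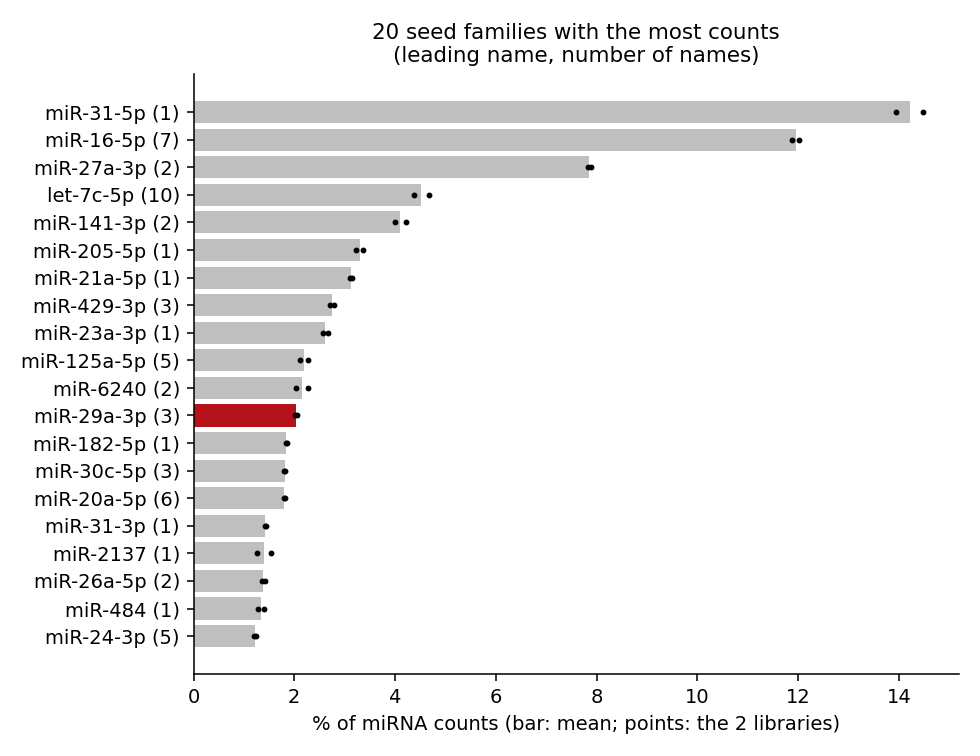
Mean percent of miRNA counts of the 20 seed families with the most counts (bars, starting at 0), with points for the 2 libraries. Families are named by their most abundant member, with the number of names summed in parentheses. Only names of known sequence are summed, so some bars, such as those of miR-23a-3p and miR-30c-5p, leave out family members. The miR-29 family (coloured, 3 names) stands at place 12 with 2.04%.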

How the data were processed

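The labels put both libraries in 1 group as replicates 1 and 2, and nothing states that they came from separate cultures, so their spread may be technical. The authors deposited 1 table per library of mature miRNA names with whole-number counts, not normalised. Per the submitters' processing notes, cutadapt, Novoalign and the build mm10 were used, with no role given. The treatment of PCR copies, of reads matching several names and of miRNA-target chimeras is not given in the sources used here. Names absent from a table were set to 0. Rows that are not miRNA names (0.00265% and 0.000218% of the counts) were left out.

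CPM, shares with Wilson 95% intervals and exact binomial tests were computed in Python 3.11.15 with scipy 1.17.1, and log2 ratios used no pseudocount. The test was checked on simulated counts that held counting error only. The spread between these 2 libraries was wider, so that check does not show how the test behaves on them. edgeR 4.0.16 (TMM) and DESeq2 1.42.0 (R 4.3.3) gave alternative scalings. Other alternatives changed totals, count minimums, thresholds, the seed length and the pooling of libraries. With 1 group, edgeR's quasi-likelihood test has no contrast. Sequences and coordinates are RefSeq's (GRCm38.p6). Names in the text are the members, miR-31-5p as the most abundant name, the 2 names above and below each guide, the seed families above and below, names sharing a seed and the leading name of each list. miR-92b-5p, A330023F24Rik, miR-5099, the miR-30, miR-23 and miR-200 families of the seed ranking and further names of the mesenchymal and blood lists were named after their values were seen. Members and lists were chosen with earlier results of these data known.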

Additional observations from a re-analysis of the deposited data

How the results depend on the processing

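The family share was 2.39% when miR-31-5p was left out of the total and 2.26% when names numbered 2000 and above were, as a smaller total must give. It moved by less than the SD under TMM, DESeq2 size factors, the 3p names alone and a minimum of 10 counts. The family's place of 12 was 13 with seeds of bases 2 to 7, 11 without names numbered 2000 and above, and 13 with names grouped by family number. The number of miR-29 names that differed between the libraries was 3 of 5, beside 70.6% of all names tested. It was 0 with a ratio of at least 2-fold (44.0% of names) and 0 with counts divided by the variance-to-mean index (1.6%). With all names tested it was 4 of 6, the added one being miR-29b-2-5p, beside 61.1% of the 1477 names. At an adjusted p of 0.01 it was 2 of 5, beside 63.7% of the 1002 names. With the total taken without miR-31-5p, miR-29b-3p passed the exact binomial test and miR-29a-5p no longer did, with directions kept. Leaving out each library gave 2.02% to 2.08% for the family, 63.3% to 63.7%, 34.2% to 34.6% and 2.07% to 2.13% for miR-29a-3p, miR-29b-3p and miR-29c-3p among the 3p names, 99.1% to 99.3% and 99.5% to 99.7% for the 3p arm of miR-29a and miR-29b, and 89.0% to 98.7% for miR-29b-1-5p among the miR-29b 5p counts. With 2 libraries each of these is the other library's value. Depth limits the 5p names, which had at most 467 counts in a library. No paired analysis was possible because both libraries belong to the same group.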
